A study of Mus musculus with 32 samples.

Results

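The 10 genes described here encode the major plasma carrier proteins and apolipoproteins that hepatocytes secrete: Alb, Ttr, Trf, Ahsg, Ambp, Apoa1, Apoa2, Apob, Apoe and Apoc1. Members were taken as every probe set annotated to 1 gene only whose symbol is on that list. This gave 11 probe sets for 9 genes, of 12488 probe sets in the table, 10833 of which name 1 gene. No probe set of its own was found for Trf, the iron carrier transferrin, which is not analysed here. The log2 signals came from 32 Affymetrix arrays, each of the total RNA of a liver sample collected 0, 20, 30 or 40 h after partial hepatectomy, in which part of the liver is cut away and the rest grows back.

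All mice were male C57BL/6 animals aged 3 months and homozygous for a floxed Rps6 allele. Rps6 encodes ribosomal protein S6. The 16 Cre plus livers also carried Mx-Cre, a Cre recombinase driven by an interferon-responsive promoter, and the 16 Cre minus livers lacked it. Deletion was induced with polyinosinic-polycytidylic acid, a double-stranded RNA that triggers interferon. The sources used here do not say whether Cre minus mice were injected too, or how long before surgery. An interferon-driven Cre is not restricted to hepatocytes, and no sham-operated livers were analysed here. In 6 groups there were 4 livers, the 30 h Cre plus group had 3 and the 40 h Cre plus group 5. Nothing in the labels ties each liver to a separate mouse, so p-values reflect the spread between these samples, which may be technical. The labels place 15 arrays in batch PHX2 and 17 in PHX3, with both batches in every group. The 40 h Cre minus group had 1 array in PHX2, and the 30 h Cre plus group had 1 in PHX3.

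Plasma proteins are made in the liver at very high rates and released into the blood. Albumin holds the osmotic pressure and carries fatty acids, transthyretin carries thyroid hormone and the retinol-binding protein, and fetuin-A (Ahsg) binds calcium phosphate. Apolipoproteins are the protein part of lipoproteins: apolipoprotein B forms the body of VLDL and LDL, A-I and A-II that of HDL, and E and C-I are exchanged between particles and act in their uptake.

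The Rps6 probe set, which also matches a pseudogene and may or may not lie in the deleted exons, read 10.99 to 11.82 in Cre minus and 6.24 to 7.69 in Cre plus livers. Of 14 listed hepatocyte enzymes 11 passed the filter described next and were tested, with mean log2 signals from 7.38 for Hpd and 7.39 for Ass1 to 12.99 for Cyp2e1. Correlation with the other arrays of its own group was under 0.95 for 3 arrays: Cre minus 30 h replicate C, Cre plus 30 h replicate A and Cre plus 40 h replicate D. Results that rest on them are given with and without them. The test was limma, in a model of the 8 groups plus batch. It ran on 9249 probe sets that lay above the 30th percentile of their own array on at least 3 arrays, with Benjamini-Hochberg adjustment within each comparison, and a probe set was called at an adjusted p below 0.05.

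Of the 11 probe sets, 9 were tested, 1 per gene. The second Apoa2 probe set and the second Apoe probe set stayed between 3.70 and 4.58 on the 32 arrays and above the 30th percentile on 0 of them. They were not tested. The Apoa2 probe set that was tested has the suffix that Affymetrix gave to probe sets whose probes match a family of sequences, so its signal may include other transcripts.

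Promoter sequence is shown for Alb and Apoa2, a member with no call and a member with calls in these data. It is the 100 bases just before an annotated start, from RefSeq on GRCm38.p6, plus strand, at chr5:90460770-90460869 for Alb and chr1:171224954-171225053 for Apoa2. Capitals mark matches on either strand to 4 motifs: TATAAA (the TATA box), GTTAAT (part of the site of HNF1, a hepatocyte transcription factor), AGGTCA (the core of nuclear receptor sites) and CCAAT.
Alb: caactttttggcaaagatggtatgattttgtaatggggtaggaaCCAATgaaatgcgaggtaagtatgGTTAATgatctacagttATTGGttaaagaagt
Apoa2: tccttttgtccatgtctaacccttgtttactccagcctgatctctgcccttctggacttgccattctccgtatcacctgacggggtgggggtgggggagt
Alb held GTTAAT 32 bases before its start and CCAAT at 56 and, on the opposite strand, at 15. The Apoa2 stretch held none of the 4, and further upstream it had TATAAA at 212 and, on the opposite strand, CCAAT at 164. Another annotated start of Apoa2, not shown, had AGGTCA at 238 and CCAAT at 128, both on the opposite strand. The promoters of Ttr, Trf and Apoc1 were not searched. Over the 250 bases before the start, 10 RefSeq entries of 7 members were searched. TATAAA was in 3 of them, GTTAAT in 2, AGGTCA in 2 and CCAAT in 4. The shares among all 32851 promoters of that table were 12.37%, 6.43%, 14.02% and 33.85%.

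Most of these transcripts were read near the top of the array's range. The highest value on any array was between 13.81 and 14.12. Apoe was the brightest probe set on 15 of the 32 arrays and Apoa1 on 7. Mean log2 signals over the 32 arrays were 13.92 for Apoe, 13.82 for Apoa1 and 13.72 for Alb. They were 12.91 for Ahsg, 12.86 for Apoc1 and 12.55 for Ambp. Apoa2 lay at 11.60, Ttr at 10.59 and Apob at 10.43.

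Spread was small at the top of the range, for members and for other genes. The 16 probe sets with a mean over 13 had a median SD of 0.13 over the arrays and none exceeded 0.24, against a median of 0.29 for the 225 between 10 and 11. When Cre minus livers at 20 h were set against those at 0 h, calls went to 6.25% of the probe sets over 13, 20.3% of those between 12 and 13, 33.9% between 11 and 12, and 23.6% between 10 and 11. Over the 10 comparisons between groups, 7 of the 16 brightest (43.8%) had at least 1 call, beside 44.9% of those between 10 and 11 and 22.5% of all tested probe sets. Alb, Apoa1 and Apoe had 0. Oligonucleotide array signal flattens as probes fill, so differences of the brightest members may be understated. How far was not tested, since the table holds no independent measure of these transcripts.

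**Figure D1:**
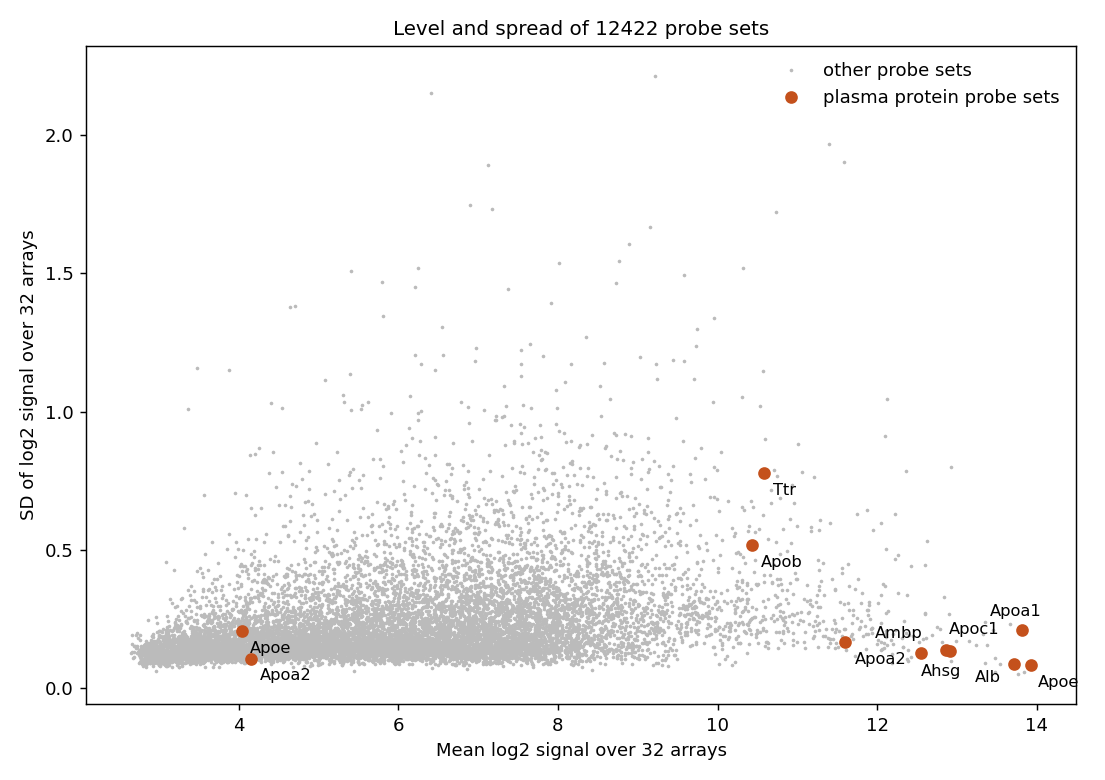
Each point is a probe set, with its mean log2 signal over the 32 arrays on the x axis and its SD over them on the y axis; orange points are the 11 plasma protein probe sets. Ttr (SD 0.78) and Apob (SD 0.52) lie well above the other members, and the cloud narrows towards the top of the range.

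Ttr was the member that moved most. Its mRNA fell after hepatectomy in both genotypes, with a log2 change of -1.35 at 20 h in Cre minus livers and of -1.64 at 40 h in Cre plus livers, and at 40 h it was 2.37-fold lower in Cre plus than in Cre minus livers. Apoc1 and Apoa2 fell by less, and Alb, Ahsg, Ambp, Apoa1, Apob and Apoe had no call. In bulk tissue, fewer cells of a type and less RNA per cell cannot be told apart.

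Transthyretin is a short-lived plasma protein. In Cre minus livers Ttr read 11.50, 11.51, 11.74 and 11.52 at 0 h, and 10.43, 9.74, 10.33 and 10.40 at 20 h, in the order of replicates A to D. At 30 h the 4 livers read 10.21, 9.90, 10.85 and 10.13, and at 40 h they read 11.42, 10.73, 11.08 and 10.49. Every liver at 20, 30 or 40 h lay below every liver at 0 h, and the 40 h livers were closest to the start. Cre plus livers began at 11.53, 11.27, 11.34 and 11.46, and by 20 h stood at 9.83, 10.76, 11.03 and 10.30. The 3 livers at 30 h read 8.93, 10.87 and 10.79, and the 5 at 40 h read 9.81, 9.04, 10.03, 10.74 and 9.03. Here too no later liver reached the lowest value at 0 h, but the 40 h livers were the lowest of the 4 times on average.

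**Figure D2:**
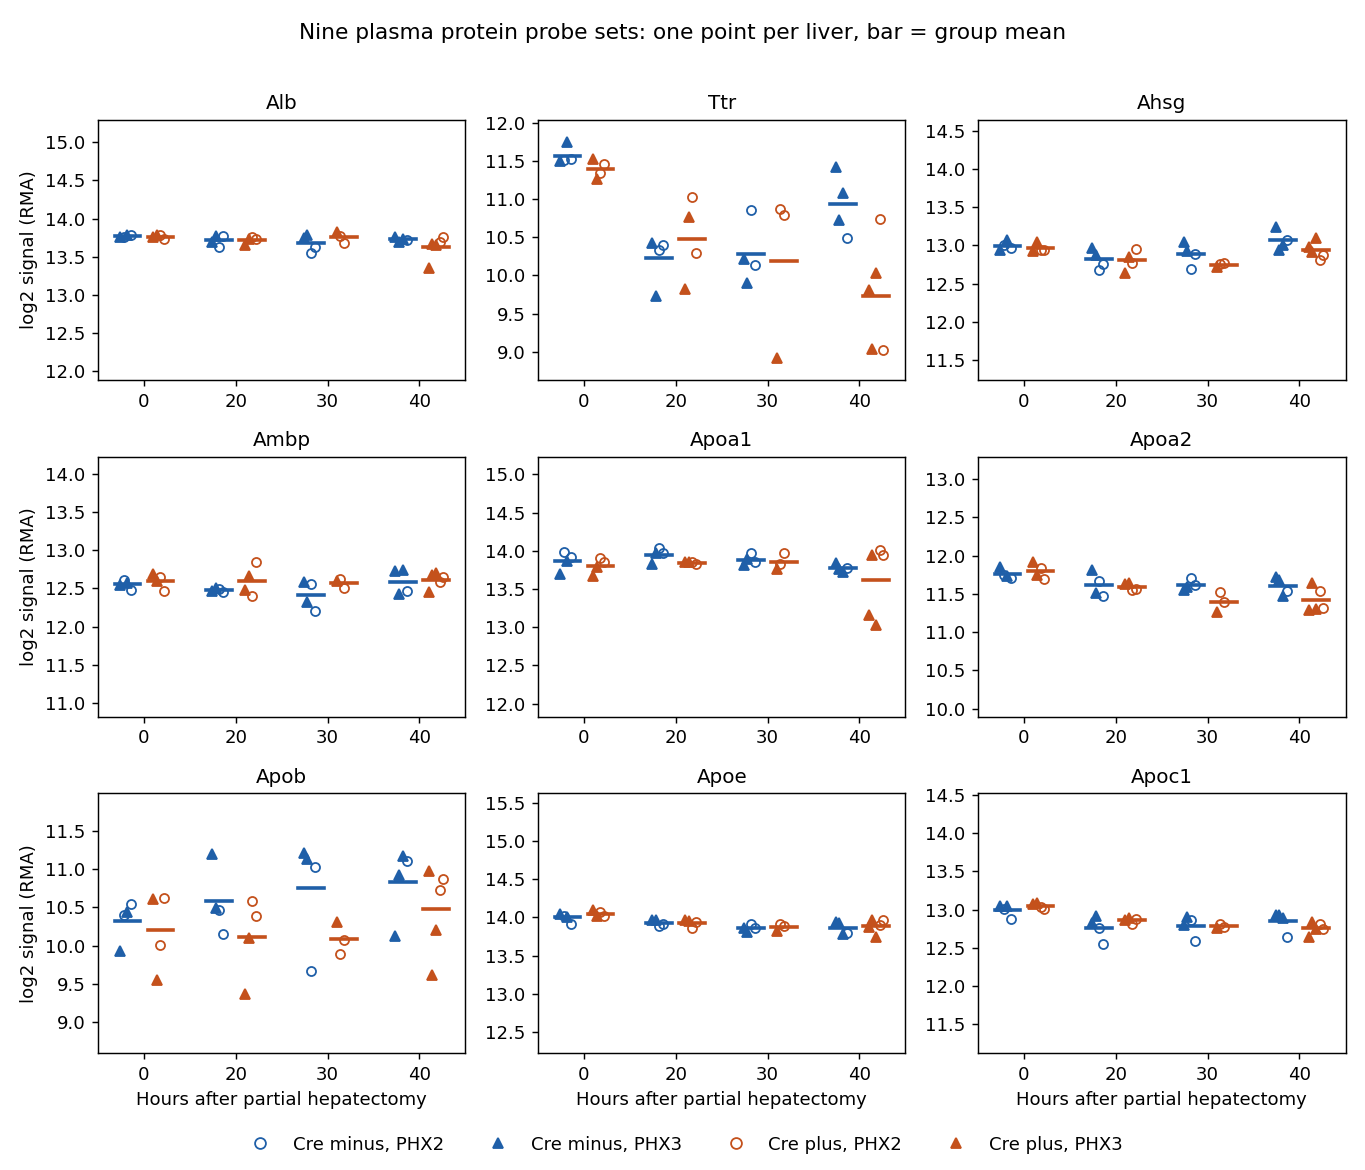
Each panel shows the log2 signal of 1 tested probe set by hours after partial hepatectomy, with 1 point per liver, bars for group means, blue for Cre minus, orange for Cre plus, open circles for PHX2 and filled triangles for PHX3; every panel spans the same range of log2 units. Ttr falls from between 11.27 and 11.74 at 0 h, while Alb, Apoe and Apoc1 stay within narrow bands.

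In Cre minus livers Ttr changed by -1.35 (SE 0.34) from 0 to 20 h with an adjusted p of 0.0179 by limma, a 2.54-fold fall. The change to 30 h was -1.29 (SE 0.34, adjusted p 0.0365 by limma), and that to 40 h was -0.57 (SE 0.35), with an adjusted p of 0.443. The call at 20 h was lost without Cre minus 0 h replicate A, 0 h replicate C or 20 h replicate B, at adjusted p values of 0.0514, 0.0576 and 0.0627 by limma. The call at 30 h was kept only when replicate C of 30 h was the liver left out. Its adjusted p was 0.0609 to 0.128 without any of the 7 others, and 0.00142 without the 3 arrays that stand apart. Within PHX2 and PHX3 the change to 20 h was -1.15 and -1.54, and that to 30 h was -1.02 and -1.57.

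In Cre plus livers Ttr changed by -0.92 (SE 0.34) to 20 h, with an adjusted p of 0.0939 by limma. It changed by -1.25 (SE 0.37, adjusted p 0.0333) to 30 h and by -1.64 (SE 0.33, adjusted p 0.00253) to 40 h, the last a 3.12-fold fall. The 30 h value leaned on replicate A, at 8.93, the single PHX3 liver of its group, and PHX2 alone gave -0.57 and PHX3 alone -2.47. Without it the change was -0.63, with an adjusted p of 0.318 by limma, and leaving out any of the 4 livers at 0 h also ended the call, at 0.0572 to 0.0799. Without the 3 arrays that stand apart, the change to 20 h was called (-0.92, adjusted p 0.0116) and that to 30 h was not (-0.55, adjusted p 0.254). The fall by 40 h kept its call when any of the 9 livers was left out. In PHX2 alone it was -1.52 and not called (adjusted p 0.162 by limma), and in PHX3 alone it was -1.77 and called (0.0131).

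The genotypes were compared at each time, to ask whether loss of Rps6 altered these transcripts before and during regrowth. Ttr differed between them by -0.17 (SE 0.34) at 0 h, 0.25 (SE 0.34) at 20 h and -0.13 (SE 0.37) at 30 h, with adjusted p values of 0.944 or more by limma. The direction at 30 h turned with the arrays used: it was 0.78 (adjusted p 0.133) without the 3 that stand apart, 0.33 in PHX2 alone and -1.13 in PHX3 alone. At 40 h the difference was -1.24 (SE 0.33, 95% interval -1.92 to -0.57), with an adjusted p of 0.0227. The groups overlapped: Cre plus replicate D, at 10.74, lay above the 2 lowest Cre minus livers, and the other 4 Cre plus livers lay below all 4 Cre minus livers. Among PHX2 livers the difference was -0.61, among PHX3 livers it was -1.45, and it was -1.45 (adjusted p 2.83e-04) without the 3 arrays that stand apart, replicate D among them. A fit of the arrays of these 2 groups alone gave -1.19 with an adjusted p of 0.168 by limma. The call was also lost without Cre minus replicate A (-1.06, adjusted p 0.114), Cre minus replicate C (-1.17, 0.0765), Cre plus replicate B (-1.09, 0.0746) or Cre plus replicate E (-1.03, 0.0758). The test of whether the change from 0 to 40 h itself differed between genotypes gave -1.07 (SE 0.48), with an unadjusted p of 0.033 and an adjusted p of 0.738 by limma, so a difference in the time course was not called.

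Ttr was the single member called in any comparison of genotypes, at 40 h, beside 5.35% of all tested probe sets. At 0, 20 and 30 h, limma called 0 of the 9, beside 0.0649%, 0.292% and 0.281% of all tested. At an unadjusted p below 0.05 there were 0 members at 0 h, 0 at 20 h, 1 at 30 h (Apoa2) and 2 at 40 h (Ttr and Apoa2). The shares of all tested probe sets below it were 1.51%, 4.42%, 11.3% and 16.9%. The median difference over the 9 at 40 h was -0.12, against -0.01 over all tested probe sets. For the difference in time course, 0 of the 9 were called at 20, 30 or 40 h, beside 0%, 0.0108% and 0.584% of all tested. Ttr at 40 h was the only one with an unadjusted p below 0.05. Of all tested probe sets, 1.43%, 4.42% and 6.09% had such a p at those times.

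**Figure D3:**
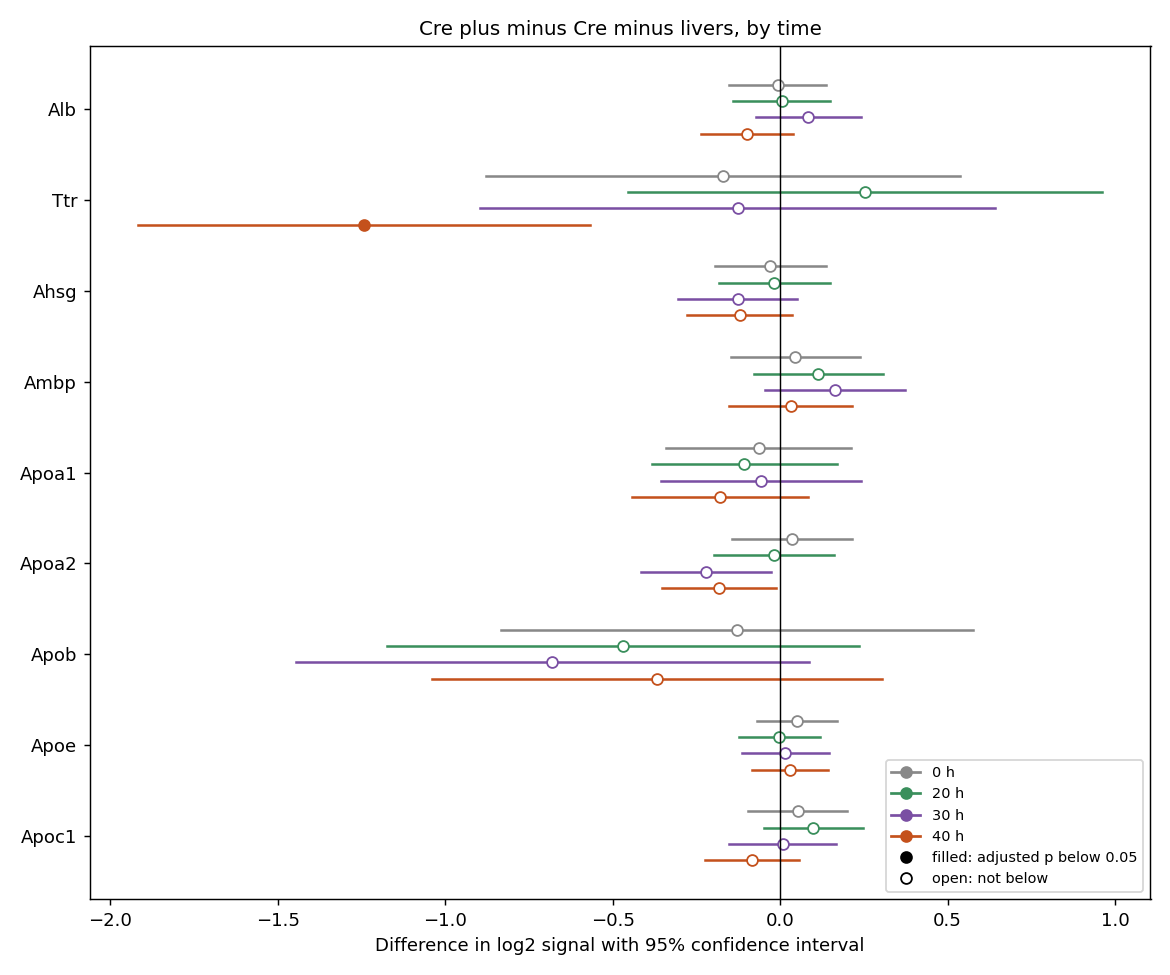
The x axis is the Cre plus minus Cre minus difference in log2 signal, with its 95% confidence interval from limma, for the 9 tested probe sets at 4 times (colours); filled points have an adjusted p below 0.05. Ttr at 40 h, at -1.24, is the one filled point.

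Over time in Cre minus livers, 2 of the 9 were called at 20 h (Ttr and Apoc1), 1 at 30 h (Ttr) and 0 at 40 h, beside 7.37%, 3.14% and 4.77% of all tested probe sets. Most of those are dimmer than the members. At 20 h, calls went to 23.6%, 33.9%, 20.3% and 6.25% of probe sets with means of 10 to 11, 11 to 12, 12 to 13 and over 13. At 40 h, 2 members had an unadjusted p below 0.05, beside 16.6% of all tested. In Cre plus livers 0 were called at 20 h and 3 at both 30 h and 40 h (Ttr, Apoa2 and Apoc1), beside 9.07%, 9.89% and 9.66% of all tested. At 20 h in Cre plus livers, 4 had an unadjusted p below 0.05, beside 23.3% of all tested. Every call was a fall. All 6 changes share the 0 h livers of their genotype, so they are not independent of each other.

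Apoc1, which encodes apolipoprotein C-I, an inhibitor of lipoprotein uptake, fell by small amounts. Cre plus livers read 13.07, 13.09, 13.03 and 13.01 at 0 h and 12.64, 12.84, 12.74, 12.81 and 12.75 at 40 h. At 20 h they read 12.86, 12.90, 12.82 and 12.88, and at 30 h 12.76, 12.81 and 12.77. No later Cre plus liver overlapped those at 0 h. The change was -0.19 (SE 0.07, adjusted p 0.102) to 20 h, -0.26 (SE 0.08, adjusted p 0.0354) to 30 h and -0.30 (SE 0.07, adjusted p 0.00569) to 40 h by limma. The call at 30 h was lost in each of the 7 omissions (adjusted p 0.0564 to 0.162) and without the arrays that stand apart (-0.19, adjusted p 0.135). That at 40 h was kept in all 9, and was lost when the arrays of these 2 groups alone were fitted (adjusted p 0.0688). PHX2 alone gave -0.23 and -0.24 at 30 and 40 h, and PHX3 alone gave -0.32 and -0.34.

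In Cre minus livers Apoc1 read 13.05, 13.01, 13.05 and 12.88 at 0 h and 12.83, 12.92, 12.76 and 12.55 at 20 h, and these groups overlapped. The change was -0.23 (SE 0.07, adjusted p 0.0441 by limma), and 7 of 8 omissions ended the call, at adjusted p values of 0.0568 to 0.191. It was kept without 20 h replicate B, and the change was -0.29 in PHX2 and -0.18 in PHX3. The changes to 30 and 40 h were -0.21 (adjusted p 0.110) and -0.17 (adjusted p 0.221).

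Apoa2 encodes apolipoprotein A-II, the second major protein of HDL. In Cre plus livers it read 11.92, 11.74, 11.84 and 11.69 at 0 h. By 20 h it stood at 11.63, 11.64, 11.55 and 11.56, while the 3 livers at 30 h gave 11.27, 11.52 and 11.40. The 5 livers at 40 h read 11.28, 11.65, 11.31, 11.54 and 11.32, and none of the later livers reached the lowest at 0 h. The change was -0.20 (SE 0.09, adjusted p 0.152) to 20 h, -0.40 (SE 0.09, adjusted p 0.00915) to 30 h and -0.38 (SE 0.08, adjusted p 0.00515) to 40 h by limma. Without 30 h replicate A, the 30 h change was -0.32 with an adjusted p of 0.068, and without the 3 arrays that stand apart it was -0.31, with 0.0496. PHX2 alone gave -0.31 and -0.33 at 30 and 40 h, and PHX3 alone gave -0.56 and -0.42. The 40 h call was kept in all 9 omissions and without the arrays that stand apart (-0.42, adjusted p 0.00160 by limma), and was lost when the arrays of these 2 groups alone were fitted (adjusted p 0.0885).

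In Cre minus livers Apoa2 read 11.85, 11.75, 11.74 and 11.71 at 0 h and 11.73, 11.68, 11.47 and 11.54 at 40 h. Its changes there were -0.15 (adjusted p 0.343), -0.14 (adjusted p 0.457) and -0.16 (adjusted p 0.374) by limma. Between genotypes Apoa2 differed by -0.22 (SE 0.09) at 30 h, where the groups did not overlap, with an adjusted p of 0.361, and by -0.18 (SE 0.08) at 40 h, with an adjusted p of 0.247. Without the 3 arrays that stand apart the 30 h difference was -0.09 (adjusted p 0.726 by limma). The test of a different time course gave -0.26 at 30 h and -0.22 at 40 h, with adjusted p values of 0.975 and 0.928. A difference between genotypes in the course of Apoa2 or Apoc1 was therefore not shown.

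**Figure D4:**
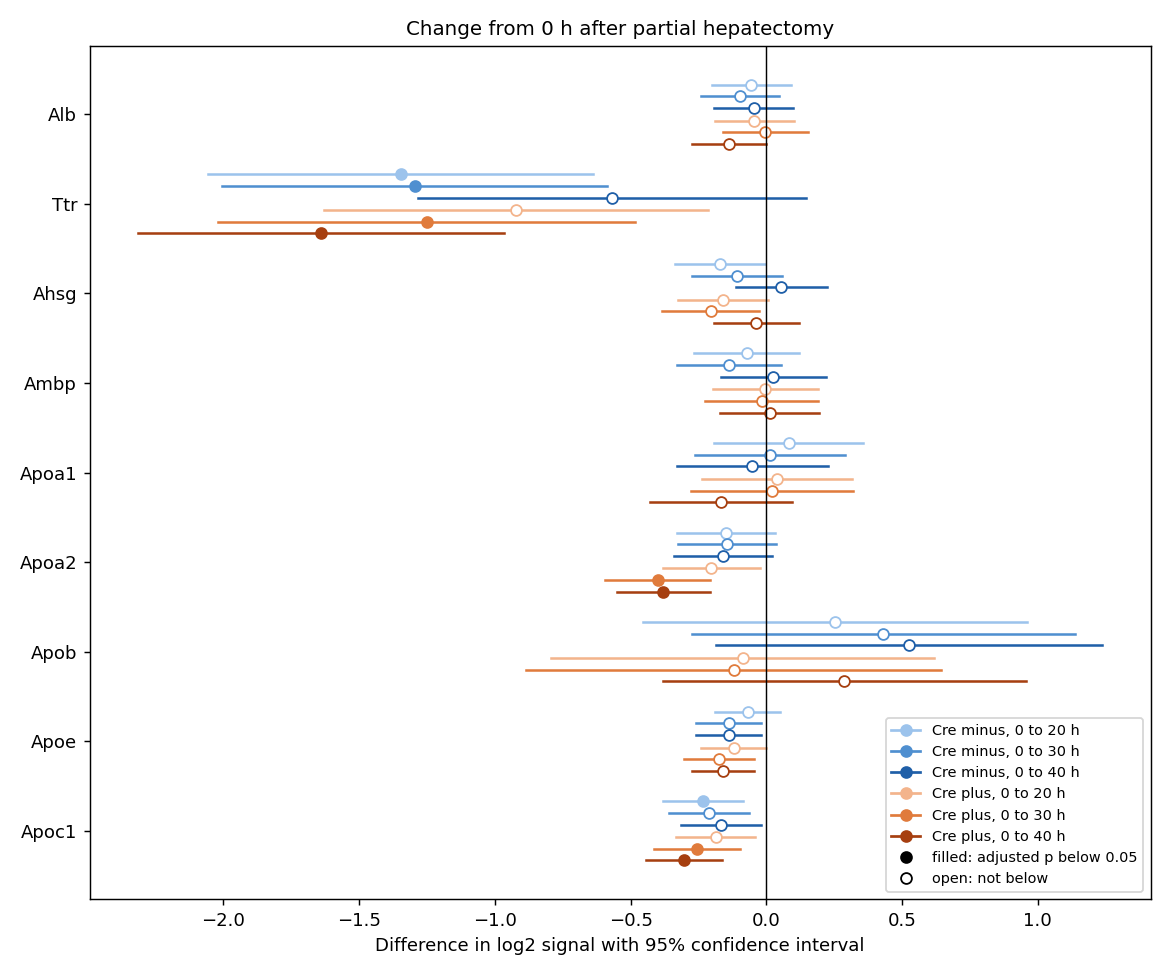
The x axis is the change in log2 signal from 0 h, with its 95% confidence interval from limma, for the 9 tested probe sets at 20, 30 and 40 h in Cre minus (blues) and Cre plus (oranges) livers; filled points have an adjusted p below 0.05. The filled points belong to Ttr, Apoa2 and Apoc1, and all lie below 0.

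Alb, the most abundant plasma protein, was among the steadiest of the 9. Its group means lay between 13.63 and 13.77, and its genotype differences between -0.10 and 0.08. The 95% intervals of the 4 genotype differences reach no further than 1.18-fold, and those of its 6 changes over time no further than 1.21-fold, on the scale of these signals. Apoe, the ligand of the LDL receptor and its relatives, differed between genotypes by -0.00 to 0.05, with intervals that reach 1.13-fold at most. Its changes from 0 h were all negative, -0.07 to -0.17. In Cre plus livers no later liver overlapped those at 0 h, and the adjusted p values at 20, 30 and 40 h were 0.210, 0.0802 and 0.0700 by limma. Of the 9 omissions for the change to 40 h, only that of Cre plus 40 h replicate E gave a call (-0.18, adjusted p 0.0465 by limma). Without the 3 arrays that stand apart it was -0.17, with an adjusted p of 0.0702.

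Ahsg and Ambp, the latter the precursor of alpha-1-microglobulin and bikunin, also had no call. Ahsg changed by -0.21 to 0.06 over time and Ambp by -0.14 to 0.03. Their genotype differences were -0.13 to -0.02 for Ahsg and 0.03 to 0.16 for Ambp, with intervals that reach 1.24-fold and 1.29-fold.

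Apoa1 had 1 uneven group. The 5 Cre plus livers at 40 h read 13.16, 13.95, 13.03, 14.01 and 13.95, while the other 27 livers lay between 13.67 and 14.03. Replicates A and C were therefore the lowest of all 32, and both are PHX3 livers, while the third PHX3 liver, replicate B, read 13.95. The genotype difference at 40 h was -0.18 (SE 0.13), with an adjusted p of 0.531 by limma. It was 0.21 in PHX2 alone and -0.40 in PHX3 alone. When arrays were weighted by quality it was -0.49, with an adjusted p of 0.00449 by limma. That fit called 861 of 9249 probe sets between genotypes at 40 h, against 495 without weights. The probe sets most like Apoa1 over the 32 arrays, after the batch was removed, were Hspa5 (Pearson r 0.77) and Manf (r 0.75), both genes of the endoplasmic reticulum's folding machinery. Hspa5 read 8.98 and 9.13 in replicates A and C and 10.74 to 10.98 in the other 3. Manf read 7.38 and 7.63 against 9.30 to 9.60.

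Apob varied most after Ttr. At 30 h the Cre minus livers read 11.21, 11.13, 9.67 and 11.02, and the Cre plus livers 10.30, 9.90 and 10.08. Replicate C of Cre minus, which stands apart, was the lowest of these 7, and the other 3 lay above all Cre plus livers. The difference was -0.68 (SE 0.37), with an adjusted p of 0.508 by limma. Without the arrays that stand apart it was -1.28, with an adjusted p of 0.0436, beside 950 of 9249 probe sets called in that fit against 26 in the full one. At 0, 20 and 40 h Apob differed by -0.13, -0.47 and -0.37, none called, and its intervals reach 2.72-fold. The 20 h difference was 0.17 in PHX2 alone and -1.11 in PHX3 alone, and that at 30 h was -0.36 and -0.86.

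Members differed in how they varied together over the 32 arrays, after the batch was removed. Apoe and Apoc1, which are neighbours on chromosome 7, had a Pearson r of 0.71, Apoa2 and Apoe 0.70, and Apoa2 and Apoc1 0.70. Ttr had 0.69 with Apoc1 and 0.68 with Apoa2. Apob had between -0.38 and 0.34 with the other 8, and Alb at most 0.49, with Apoa1. These points share arrays, time and genotype, and are given as a description. Outside the members, the closest to Ttr were Psmb8 (r 0.93), an immunoproteasome subunit, and Fads1 (r 0.91), a fatty acid desaturase. The closest to Ahsg was C4bp (r 0.88), a complement inhibitor, and to Apoc1 it was Apoh (r 0.86), a phospholipid-binding plasma protein.

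Other apolipoproteins moved in both directions after hepatectomy. In Cre minus livers at 20 h, 2 of the 9 tested were called higher and 2 lower, with a median of 0.09 against -0.03 over all tested probe sets. Of all 9249 tested, 7.37% were called in that comparison, 308 higher and 374 lower. Apoa4, which is made in the fasting liver and in the intestine, changed by 2.49 (SE 0.36, adjusted p 1.71e-04 by limma), from a mean of 10.52 at 0 h to 13.01, and Apoc2, the activator of lipoprotein lipase, by 0.67 (SE 0.20, adjusted p 0.0419). Apom, the carrier of sphingosine 1-phosphate in HDL, changed by -0.52 (SE 0.15, adjusted p 0.0298) and Apoh by -0.42 (SE 0.10, adjusted p 0.0146). Between genotypes limma called 0 of the 9 at every time, with 0, 3, 2 and 2 at an unadjusted p below 0.05 at 0, 20, 30 and 40 h. Of all tested probe sets, 1.51%, 4.42%, 11.3% and 16.9% had such a p, and 0.0649%, 0.292%, 0.281% and 5.35% were called.

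Among 11 other plasma carriers and binding proteins, 2 were called lower by 20 h in Cre minus livers, beside 7.37% of all tested probe sets called. Igfals, which holds IGF in a circulating complex, changed by -1.0 (SE 0.28, adjusted p 0.0305 by limma), and Afm, a vitamin E carrier, by -0.64 (SE 0.17, adjusted p 0.0246). Both were also lower in Cre plus livers at 40 h, Igfals by -1.07 (SE 0.27, adjusted p 0.0167) and Afm by -0.59 (SE 0.17, adjusted p 0.0327). Those were the 2 of 11 called there, beside 5.35% of all tested probe sets, and the list's median was -0.13 against -0.01 over all tested. Igfals differed there by -1.39 in PHX2 alone and -0.89 in PHX3 alone, and Afm by -0.16 and -0.78. The mean of Igfals was 9.54 at 0 h and 9.43 at 40 h in Cre minus livers, and 9.37 and 8.33 in Cre plus livers.

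Of 20 coagulation and fibrinolysis genes, 5 were called lower and 2 higher by 20 h in Cre minus livers, with a median of -0.34. In that comparison 7.37% of all tested probe sets were called, the share to set beside each list of this paragraph at 20 h. Klkb1 (plasma kallikrein) changed by -1.39, F10 by -0.69 and F13b by -0.68, and Fgb, a fibrinogen chain, by 0.64. F12 was the only 1 of the 20 called between genotypes, at 40 h, by 0.43 (adjusted p 0.0113 by limma), beside 5.35% of all tested. Of 12 complement genes, 2 were called lower at 20 h, C2 (-0.87) and Masp2 (-0.42), and of 11 protease inhibitors 1, Itih1 (-0.55). Of 13 genes of lipoprotein assembly, remodelling and uptake, Angptl4, an inhibitor of lipoprotein lipase, rose by 0.81. Its probe set has the same family suffix as the tested one of Apoa2, so other transcripts may enter its signal. Between genotypes, Pltp, the phospholipid transfer protein, was lower in Cre plus livers at 20 h (-0.85, adjusted p 0.0312) and Abcg1, a cholesterol exporter, at 40 h (-0.28, adjusted p 0.0330). Calls went to 0.292% of all tested probe sets at 20 h and 5.35% at 40 h.

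Transcription factors that act on plasma protein genes were read from a list of 19, of which 16 were tested. Cebpa was called lower by 20 h in Cre minus livers (-1.27, SE 0.29, adjusted p 0.00972 by limma), and Cebpb (1.20, SE 0.20, adjusted p 9.38e-04) and Foxa1 (0.66, SE 0.17, adjusted p 0.0176) higher. In that comparison 7.37% of all tested probe sets were called. Between genotypes 0 of the 16 were called by limma at any of the 4 times, and 0, 3, 6 and 1 had an unadjusted p below 0.05. The shares of all tested probe sets with such a p were 1.51%, 4.42%, 11.3% and 16.9%, and the shares called were 0.0649%, 0.292%, 0.281% and 5.35%.

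Apoe is made by macrophages as well as hepatocytes, so the markers of Kupffer cells, the liver's macrophages, were read beside it. All 10 tested of the 14 listed had a negative genotype difference at 0, 20 and 30 h and 9 did at 40 h, with median differences of -0.45, -1.0, -0.41 and -0.75. Of them 0, 5, 2 and 6 were called lower in Cre plus livers, and 6, 9, 5 and 9 had an unadjusted p below 0.05. Calls in either direction went to 0.0649%, 0.292%, 0.281% and 5.35% of all tested probe sets. Unadjusted p values below 0.05 went to 1.51%, 4.42%, 11.3% and 16.9%. Clec4f was among the 5 markers called at 20 h (-1.51, adjusted p 7.86e-04 by limma). The mean of the 10 ranged from 7.27 to 7.81 in Cre plus and 7.84 to 8.15 in Cre minus livers at 0 h, and from 6.62 to 7.32 and 7.40 to 8.09 at 40 h. The Apoe differences were 0.05, -0.00, 0.02 and 0.03 at those times. Over the 32 arrays, with the batch left in, the r between Apoe and the mean of these markers was 0.16. Apoe read near the top of the array's range, with an SD of 0.08, and hepatocytes make it too. A change in macrophage Apoe could therefore go unseen here, and was not tested. The mean of the erythroid markers also differed between genotypes after hepatectomy, though not every marker did. At 40 h the mean of the 5 tested of 8 listed ranged from 7.82 to 8.33 in Cre minus and from 6.34 to 7.42 in Cre plus livers. It ranged from 6.90 to 8.46 against 6.22 to 6.89 at 20 h, and from 7.31 to 7.71 against 6.17 to 6.79 at 30 h. The genotypes did not overlap at these 3 times, and did at 0 h. At 40 h the haemoglobin genes Hba-a1 (-3.12, adjusted p 5.94e-04) and Hbb-b2 (-3.13, adjusted p 3.41e-04 by limma) were the 2 called, and Alas2, Klf1 and Slc4a1 differed by -0.27, 0.01 and -0.09. The part of the Kupffer and erythroid markers in the Ttr difference at 40 h was not tested. The 11 hepatocyte enzymes had a median difference of 0.06 at 40 h, with 0 called by limma and 3 at an unadjusted p below 0.05. Of all tested probe sets, 5.35% were called then and 16.9% had an unadjusted p below 0.05.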

How the data were processed

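The table deposited by the authors holds log2 signals of 12488 probe sets on 32 arrays. Per the submitters' processing notes these are RMA values, with no version or joint treatment of the batches given in the sources used here. That the logarithm has base 2 was inferred from values of 2.30 to 14.12. All columns matched a sample label. Gene symbols came from the platform's annotation and were brought up to date with RefSeq. The 66 control probe sets were left out. Mean levels place each probe set in the array's range, and do not give relative abundance between genes.

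The tests were run in limma 3.58.1 under R 4.3.3 (lmFit and eBayes) over all 32 arrays, with 8 groups and the batch as terms. The filter, adjustment and threshold are given with the results. The script was tested on simulated data. For arrays, their number limits the precision. The members and gene lists were chosen with earlier results of these data known. All member probe sets are named. Of each other list, up to 4 genes with the largest called change by 20 h in Cre minus livers and up to 4 called between genotypes are named, each by its brightest probe set. For each member, the pair of probe sets most correlated with it was found, and some are named. The alternatives left out the batch term, changed the filter, the scaling, the weights or the variance trend, used fewer arrays, added the replicate letter as a block, or left out each liver in turn. The labels do not say whether replicate letters pair the livers. Deviations correlated above 0.1 in 7 of 15 same-letter pairs of arrays. After removing the batch they did so in 4 of 15, over a range of -0.42 to 0.33. This check cannot exclude pairing.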

Additional observations from a re-analysis of the deposited data

Results flagged for a closer look

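Of 77 combinations of a probe set and a group of 4 or 5 livers, 9 held a liver far from the rest of its group by Dixon's test, where chance gives about 1 in 20, or 3.9. Alb read 13.35 in Cre plus 40 h replicate A, below 13.65 to 13.76 in the other 4. Apoa1 was also low in that liver, as described above. Apob read 9.67 in Cre minus 30 h replicate C, below 11.02 to 11.21 in the other 3. Ttr read 9.74 in Cre minus 20 h replicate B, below 10.33 to 10.43, and 11.74 in Cre minus 0 h replicate C, above 11.50 to 11.52. Apoc1 read 12.64 in Cre minus 40 h replicate D, below 12.89 to 12.94. Ahsg read 13.05 in Cre plus 0 h replicate B, above 12.93 to 12.94. Apoa1 read 13.82 in Cre plus 20 h replicate D, below 13.85 in each of the other 3, a gap of little size in a narrow group. The dim second probe set of Apoa2 read 3.92 in Cre minus 20 h replicate B and 4.22 in Cre minus 30 h replicate D, both near the floor of the table.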

How the results depend on the processing

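No difference of a member changed direction while called, under any alternative run. Members called, out of 9 tested, moved as follows. For Cre minus livers at 20 h against 0 h the count went from 2 to 1 without the batch term, without the filter, with arrays centred on the median, with quantile normalization, with scaling on the 200 brightest probe sets, on the arrays of the groups compared alone and within PHX3, since Apoc1 was lost. It was 3 (with Ahsg) with array weights, 0 within PHX2, and 0 to 1 without each liver. For the change to 30 h in Cre minus livers it went from 1 to 0 without the batch term, within PHX2 and within PHX3, to 2 with array weights, and to 0 to 1 without each liver. That to 40 h went from 0 to 1 (Ttr) on the arrays of the groups compared alone. In Cre plus livers the count at 20 h went from 0 to 3 with array weights and to 1 (Ttr) on the groups compared alone or without the arrays that stand apart. At 30 h it went from 3 to 5 with array weights, to 2 with median centring or scaling on the brightest, to 1 (Apoa2) without the arrays that stand apart, to 0 within PHX2, to 1 within PHX3, and to 0 to 2 without each liver. At 40 h it went from 3 to 6 with array weights, to 4 (with Apoe) with a variance trend, to 2 within PHX3, to 1 on the groups compared alone, to 0 within PHX2, and to 3 to 4 without each liver. Between genotypes the count at 30 h went from 0 to 2 (Ambp and Apob) with array weights and to 1 (Apob) without the arrays that stand apart. At 40 h it went from 1 to 3 (Ttr, Apoa1 and Apoa2) with array weights, to 0 on the groups compared alone and within PHX2, and to 0 to 1 without each liver. With the replicate block, the Ttr difference at 40 h was -1.03 with an adjusted p of 0.0816 by limma and the count was 0, and it changed no other call of a member. Within a batch, groups hold 1 to 3 livers. The cause of these shifts was not tested. Over all probe sets, array weights raised the calls at 30 h between genotypes from 26 to 2436.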
